A study of Gallus gallus with 4 samples.

Results

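POSTN, LUM, DCN and HAPLN1, which encode 4 secreted components of the extracellular matrix, were followed through the chick trunk across groups of cells defined by marker genes and across 4 stages of somite formation. They were 4 of the 21328 genes in the count table and were chosen by name with their levels in these cells already known, so the levels themselves are given as a description, with no test. Tests were reserved for other matrix genes and for the genes that differed between cells with and without a member.

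Single cells came from chicken (Gallus gallus) embryos with no treatment named in the labels. The tissue was the trunk from the third somite backwards, at 4, 7, 10 and 13 somites (4S, 7S, 10S and 13S), pooled from at least 4 embryos per stage. Each stage was 1 droplet library of messenger RNA 3′ ends (replicate 1), so no difference between stages could be tested, and the intervals below (95%, exact Poisson for counts and their ratios) cover counting error only. With cells pooled this way, a gene's level over all cells cannot tell fewer expressing cells from less RNA per cell, and levels were therefore read within groups.

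Periostin (POSTN) is a matricellular protein that binds integrins and collagen and is known from mesenchyme such as tendon, periosteum and heart valves. Lumican (LUM) and decorin (DCN) are small leucine-rich proteoglycans that attach to collagen and set fibril spacing, and decorin also binds growth factors of the TGFβ family. HAPLN1 is the link protein that locks chondroitin sulphate proteoglycans such as versican onto hyaluronan, and it is known from cartilage and from the cardiac jelly.

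Of 25379 cells kept, 4025 were from 4S, 5909 from 7S, 8669 from 10S and 6776 from 13S. A median of 3758 unique molecular identifiers (UMIs, each standing for 1 captured molecule) per cell made 7S the shallowest library, against 7182 to 8849 in the others. All 2012 cells removed were from 7S and fell under the minimum of 2500 UMIs. Among 27318 different cell barcodes, 73 occurred in more than 1 library.

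Groups of cells, called gates below, were set by UMIs of marker genes. At least 2 UMIs of MSGN1, a regulator of caudal presomitic mesoderm, defined 4301 cells, and at least 2 of MEOX1, a homeobox gene of segmenting and somitic mesoderm, defined 2903. The lateral gates were HLX, a homeobox gene of splanchnic mesoderm (257 cells), and HAND2, a lateral plate regulator (317 cells). LMO2, a regulator of blood and endothelial precursors, gave 917 cells. Notochord cells (980) carried at least 2 UMIs of the BMP inhibitor CHRD together with NOTO or TBXT. Surface ectoderm (822 cells) had CDH1 with TFAP2A, WNT6 or DLX5. The neural gate, on SOX2, held only 45 cells, of which 3 were from 4S and 1 from 7S, so cells with PAX6 (777) were added as a further neural reference after the data had been seen. Levels are given as a gene's UMIs per 1000000 UMIs of a library's cells in a gate (CPM). As a mean of the libraries, each gate's list of check markers summed highest in that gate among the gates, and no gene of a list was at 0 in its own gate. The notochord list held TBXT and NOTO, which also helped to set that gate, so its sum there is not a separate check. By library, ranges overlapped for the MSGN1 list, at 436 to 651 CPM in MSGN1 cells and 217 to 460 CPM in MEOX1 cells. They also overlapped for the HLX list, at 197 to 569 CPM in HLX cells and 106 to 344 CPM in HAND2 cells. The HAND2 list had means of 305 CPM in HAND2 cells and 199 CPM in surface ectoderm. Closest were the means of the surface ectoderm list, at 1333 CPM in surface ectoderm and 1156 CPM in the HLX gate, with 1 of its 6 genes at 0 there. By library it ranged from 1182 to 1577 CPM in surface ectoderm and from 418 to 2070 CPM in the HLX gate. In ungated cells with SOX17 and FOXA2 (endoderm) that list summed to 2111 CPM. The neural list, which holds PAX6, summed to 801 CPM in PAX6 cells and 346 CPM in the neural gate. Neither the surface ectoderm list nor the neural list is thus particular to its gate. No gate took 13761 cells, and 1076 fell into more than 1 gate and were left out. Cells with both HLX and HAND2 counted as HLX cells only.

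Levels count 3′ ends with no correction for gene length, so levels are compared between groups of cells and never between the 4 genes. Shares of positive cells were taken after each cell was thinned at random to 2500 UMIs, which put every gate at the same depth.

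**Figure D1:**
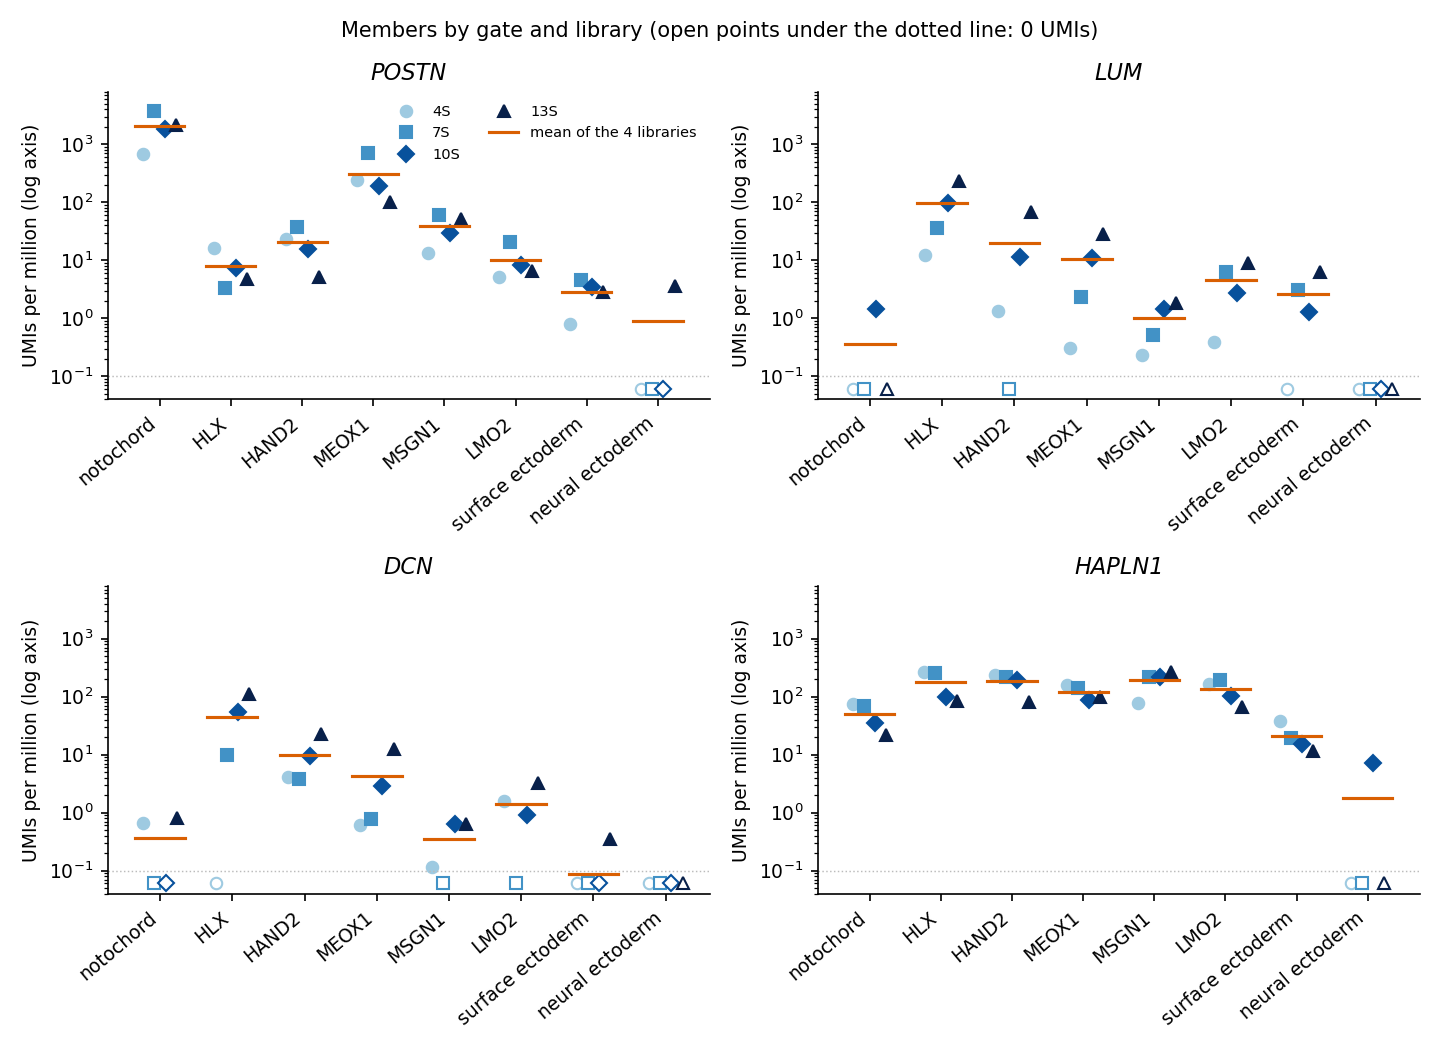
Level of each gene in CPM (vertical axis, log scale) by gate (horizontal axis), with 1 point per library and a bar at the mean of the 4 libraries; open points under the dotted line are libraries with 0 UMIs. POSTN is highest in notochord at a mean of 2107 CPM, LUM and DCN in the HLX gate at 95.7 and 43.7 CPM, and HAPLN1 has means between 121 and 192 CPM in the 5 mesoderm gates.

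POSTN was highest in notochord, followed by the MEOX1 gate. In notochord cells it had 675 CPM at 4S (interval 635 to 718), 3708 in the 7S library (3566 to 3854), 1875 for 10S (1817 to 1935) and 2169 for 13S (2087 to 2254). The mean was 2107 ± 1248 CPM (SD, n = 4 libraries). Notochord cells were 3.86% of all cells and held 53.8% of all POSTN UMIs. After thinning, 59.2%, 77.7%, 80.8% and 88.0% of them were positive in stage order. Over the 4 libraries the share was 76.9%, or 86.7% without thinning, at a median depth of 5257.5 UMIs per cell. Droplets also pick up free RNA from other cells, so cells that should lack POSTN were counted in the same way. Surface ectoderm cells, with a deeper median of 8097 UMIs, were positive at 0.852% (2.19% without thinning). PAX6 neural cells, at a median of 7427, were positive at 0.257% (1.67% without thinning).

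MEOX1 cells had 239, 699, 194 and 102 CPM of POSTN in stage order (308 ± 267, SD, n = 4). Notochord was above them in 4 of 4 libraries, although 675 CPM in notochord at 4S lay below 699 in MEOX1 cells at 7S. MEOX1 cells were above the MSGN1 cells of the same library in 4 of 4 libraries, and the ranges of these gates did not overlap. MSGN1 cells had 13.6, 60.5, 29.1 and 52.2 CPM in stage order. Cells with both markers had 111, 248, 69.9 and 89.6 CPM, which was above MSGN1 cells and below MEOX1 cells in each of the 4 libraries. Lateral and vascular gates were low, with means of 20.5 CPM in HAND2, 10.1 in LMO2 and 7.98 in HLX cells. Surface ectoderm averaged 2.90 CPM. From MSGN1 downwards, neighbouring gates in this order overlapped in range, and each pair kept the order in 3 of 4 libraries. MSGN1 cells, for example, had 52.2 CPM at 13S against 5.08 in HAND2 cells, but 13.6 at 4S against 22.9.

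Ratios between gates of the same library describe this pattern. Notochord exceeded the 5 mesoderm gates together by 11.0, 14.1, 23.1 and 35.8 times in stage order. Against MEOX1 cells alone, notochord stood at 2.83, 5.30, 9.66 and 21.3 times, higher at each later stage. Lateral cells (HLX and HAND2 together) had 21.3, 19.4, 11.9 and 4.95 CPM, against 76.6, 314, 96.1 and 71.6 CPM in paraxial cells (MSGN1 and MEOX1 together). The lateral level was thus between 0.0619 and 0.278 of the paraxial one in every library.

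Across stages, POSTN moved in opposite directions in its home gates. The level at 13S over that at 4S was 3.21 in notochord (2.99 to 3.45), 3.83 in MSGN1 cells (3.12 to 4.73) and 0.427 in MEOX1 cells (0.384 to 0.476). Positive MEOX1 cells were 38.3%, 59.8%, 31.1% and 19.7% in stage order. The 7S library had the highest POSTN level of the 4 in each gate except HLX and neural ectoderm. That library was also the shallowest and the one with removed cells, and the part of this in its POSTN level was not tested. Without 7S the notochord mean was 1573 CPM.

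**Figure D2:**
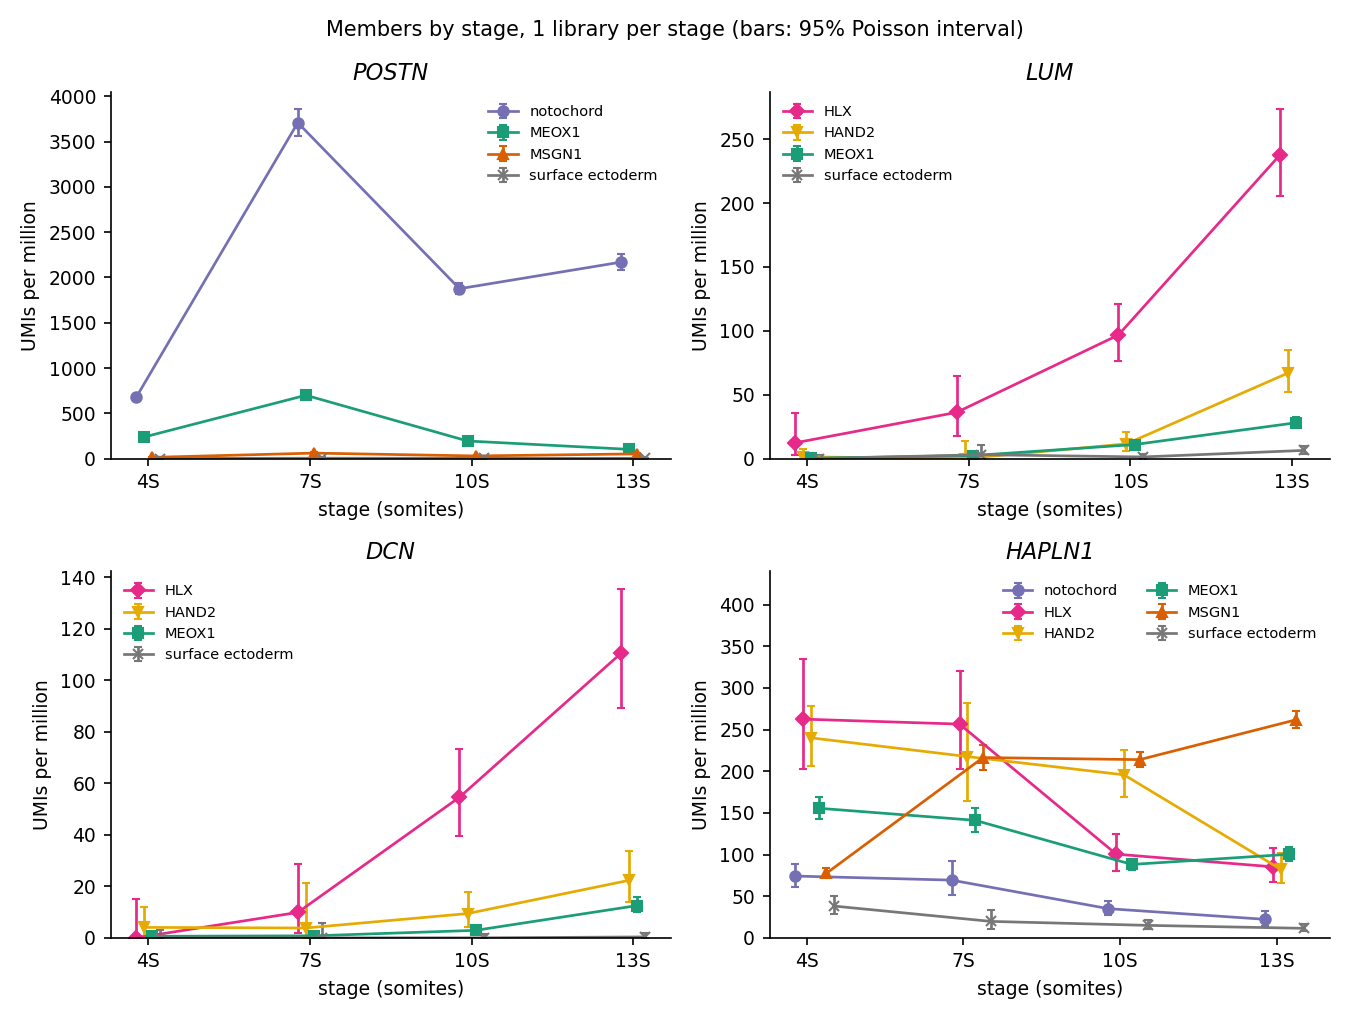
Level in CPM (vertical axis, linear) against stage (horizontal axis) for selected gates per gene, with 95% exact Poisson intervals and 1 library per point. Surface ectoderm is drawn in each panel for reference, and LMO2 cells are not drawn. POSTN is highest at 7S in MEOX1 cells and lowest at 13S, LUM and DCN are highest at 13S in HLX cells, and HAPLN1 is higher at 13S than at 4S in MSGN1 cells and lower in HLX and HAND2 cells.

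Within both gates POSTN was higher in cells with further markers. Notochord cells with at least 2 UMIs of SHH and LEFTY1, secreted signals of the formed notochord, had 1265, 5824, 3027 and 2846 CPM in stage order, against 359, 1928, 884 and 1278 CPM in notochord cells with neither. The ratio lay between 2.23 and 3.52. In MEOX1 cells with at least 2 UMIs of TCF15, a regulator of somite epithelium, POSTN had 272, 765, 210.4 and 107 CPM, against 20.0, 154, 45.7 and 16.1 CPM in MEOX1 cells without it. The ratio of means was 5.75, and the cells without TCF15 numbered only 141.

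Genes other than POSTN were then tested between notochord cells positive for it (129, 143, 298 and 184 cells in stage order) and negative ones (89, 41, 71 and 25). Sums per library were compared by edgeR's quasi-likelihood test with a block for the library and p-values adjusted by Benjamini-Hochberg, and 647 of 5356 genes passed at 0.05, 381 higher and 266 lower in positive cells (12.1% of all genes, 7.11% higher and 4.97% lower). POMC, the precursor of melanocortin peptides, had 1235 ± 760 CPM in positive cells and 42.1 ± 38.0 in negative ones (log2 difference 4.43 ± 0.20 SE, adjusted p = 6.0568e-19). TIMP3, a matrix-bound inhibitor of metalloproteinases, had 303 ± 96.9 against 14.1 ± 11.1 CPM (3.90 ± 0.26, adjusted p = 4.3903e-14). SST, the precursor of somatostatin, had 391 ± 357 against 21.8 ± 24.5 CPM (3.87 ± 0.22, adjusted p = 2.4375e-16). All 3 genes were higher in positive cells of each library.

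KAZALD1, a secreted protein with a Kazal-type inhibitor domain, had 116 UMIs in positive notochord cells and none in negative ones, which is at least 14.0-fold higher against a floor of 3 UMIs. NPY7R (42.5 against 0.759 CPM), PLA2G15 (35.4 against 0.920) and ME1 (30.4 against 1.82) rested on 2 UMIs each in negative cells, and WFDC1 (44.0 against 2.20) on 3. ENSGALG00000055078 (97.2 against 5.33 CPM) and SMPD3, a sphingomyelinase (log2 difference 3.50), completed the 10 largest rises. KAZALD1, NPY7R, PLA2G15, ME1 and SMPD3 lost their call when positive cells were chosen without thinning.

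The largest fall among genes that went the same way in every library was in CLDN1. This tight junction gene had 38.6 ± 21.3 CPM in positive cells and 386 ± 223 in negative ones (log2 difference -3.12 ± 0.17 SE, edgeR adjusted p = 9.2771e-17). HES5, a Notch target, had 23.5 against 149.9 CPM, and FGF19, a secreted growth factor, 13.9 against 84.1. HOXA7, a Hox gene of the trunk, had 119 against 912 CPM but did not pass without the library block. ENSGALG00000001136 had 14.5 against 91.5 CPM.

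Markers of the gates moved with POSTN inside the notochord. SHH had 234 ± 75.1 CPM in positive cells and 53.5 ± 14.5 in negative ones, and LEFTY1 had 126 ± 95.2 against 15.4 ± 7.91. The split of these cells by SHH and LEFTY1 above already showed this association, so these values are not a separate result. CHRD, which helped to define the gate, had 7626 against 3269 CPM. DLL1, a Notch ligand of presomitic mesoderm, had 29.9 against 139 CPM, and CYP26A1, which degrades retinoic acid, 23.3 against 108. The summed notochord markers ranged from 2917 to 3725 CPM in positive and from 1391 to 2341 CPM in negative cells, with 4 of 5 tested genes higher. Of that list, TBXT (2068 against 1201 CPM) and NOTO (729 against 401) had also helped to set the gate. The summed MSGN1-gate markers ranged from 41.3 to 66.0 CPM in positive and from 208 to 341 in negative cells. The 2 tested genes of that list, DLL1 and CYP26A1, were lower in positive cells. CYP26A1 was itself low in MSGN1 cells, at 4.84 CPM in HAPLN1-positive and 8.52 in HAPLN1-negative ones. This fall is thus not particular to markers of MSGN1 cells. The study lists CYP26A1 and CLDN1 among the genes of the notochord population that it assigns to the node. TCF15, from the list of the MEOX1 gate, was higher in positive cells at 312 ± 69.9 CPM, against 132 ± 44.5 in negative ones (log2 difference 1.21 ± 0.15 SE, edgeR adjusted p = 1.6274e-07). The part of these markers in the calls was not tested.

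Among genes of 6 matrix lists, 10 of 35 tested were higher and 2 lower in POSTN-positive notochord cells, against 12.1% of all genes in either direction. The median log2 difference was 0.29 (0.00 for all genes), and DESeq2 called 8. Fibril components led, with FBLN2, an elastic fibre protein, at 97.7 ± 25.6 against 15.7 ± 5.14 CPM (log2 difference 2.58 ± 0.26 SE, edgeR adjusted p = 1.1317e-09). COL5A1, which nucleates collagen fibrils, had 118 ± 35.4 against 17.0 ± 13.0 CPM (2.43 ± 0.26, adjusted p = 3.1616e-09). THBS1, TGFBI and SMOC1 of the matricellular list were also higher, at log2 differences of 2.34, 1.54 and 0.94. The other genes that passed were PLOD2 (1.27), SDC2 (0.78), VCAN (0.72), UGDH (0.56) and ITGB1 (0.49) among the higher ones. Fibronectin (FN1) had 68.3 against 110.3 CPM and CCN3, a matricellular protein, 293 against 505 CPM, and both were lower.

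LUM was highest in HLX cells, the differentiating lateral mesoderm, and higher at later stages. In HLX cells it had 12.3 CPM at 4S (2.54 to 36.0, from 3 UMIs), 36.2 in the 7S library (18.1 to 64.7), 96.7 for 10S (76.4 to 120.7) and 238 for 13S (206 to 273). The mean was 95.7 ± 101.1 CPM (SD, n = 4). None of 20 HLX cells was positive at 4S after thinning (exact Clopper-Pearson interval up to 16.8%), although 10.0% were before it, and 3.92%, 17.0% and 39.5% were at the later stages. Over all HLX cells the share was 20.6%, or 44.0% without thinning, against 0.487% (1.58% without thinning) in surface ectoderm, at median depths of 8099 and 8097 UMIs per cell. LUM was higher at each later stage, and 13S stood at 19.3 times 4S (6.52 to 94.5).

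Other gates had lower mean levels of LUM, but not always fewer positive cells. The larger MEOX1 gate held 258 LUM UMIs and 74 positive cells after thinning, against 290 UMIs and 53 positive cells in the HLX gate. Paraxial cells together held 87 positive cells and lateral cells 73. HAND2 cells had 1.35, 0, 11.5 and 67.0 CPM in stage order and MEOX1 cells 0.303, 2.36, 11.0 and 28.1 CPM. HLX cells were above HAND2 cells in 4 of 4 libraries although the ranges overlapped, by 8.40 times at 10S and 3.55 times at 13S. LMO2 cells averaged 4.60 CPM, surface ectoderm 2.68, MSGN1 cells 1.00 and notochord 0.360. Lateral cells together had 4.06, 19.4, 50.5 and 145 CPM, against 0.254, 1.25, 5.32 and 12.1 CPM in paraxial cells, with ratios between 9.50 and 16.0. Most of the gene lay outside the gates: ungated cells, 54.2% of all cells, held 1152 of its 1907 UMIs (60.4%) and 304 of 484 positive cells.

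DCN was highest in HLX cells too. In HLX cells it had no UMI at 4S (up to 15.1 CPM), 9.87 CPM in the 7S library (2.03 to 28.8, from 3 UMIs), 54.6 for 10S (39.6 to 73.2) and 110.5 for 13S (89.0 to 135.5). Against the floor of 3 UMIs at 4S, 13S was at least 8.98-fold higher. After thinning, 3.92% of HLX cells were positive at 7S, 14.0% at 10S and 20.9% at 13S. No surface ectoderm cell was positive after thinning and 0.122% were without it. HAND2 cells had 4.05, 3.82, 9.41 and 22.3 CPM and MEOX1 cells 0.605, 0.786, 2.91 and 12.5. The number of DCN-positive cells after thinning was 35 in the larger MEOX1 gate and 34 in the HLX gate. As for LUM, most of the gene lay outside the gates: ungated cells held 480 of its 807 UMIs (59.5%) and 144 of 235 positive cells. Lateral cells had 3.05, 7.07, 30.1 and 62.7 CPM, against 0.254, 0.312, 1.56 and 5.29 CPM in paraxial cells, with 13S at 11.9 times and 10S at 19.3 times. The 4S and 7S ratios rested on 2 to 4 UMIs on each side.

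Higher levels of both proteoglycans at later stages were not limited to one gate. Over all cells LUM had 0.615, 2.69, 8.24 and 23.7 CPM in stage order, which put 13S over 4S at 38.6 (25.6 to 61.1). DCN had 0.482, 0.694, 3.57 and 10.0 CPM over all cells, a ratio of 20.8 (13.0 to 35.3). Lateral cells with at least 2 UMIs of the cardiac regulators NKX2-5, TBX5, GATA4 and GATA5 together had 5.35, 30.3, 69.6 and 142 CPM of LUM, against 0, 7.12, 3.00 and 159 CPM in lateral cells with none of them. TBX5 and GATA4 are also on the list of check markers of the HLX gate, so this split does not show that the cells were cardiac. At 10S the cells without cardiac markers held 1 UMI of LUM and 1 of DCN, and at 13S 38 and 14.

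LUM and DCN sit next to each other in the genome, in the gene order EPYC, KERA, LUM, DCN and BTG1 of the RefSeq annotation of GRCg7b, a later build than the one used for counting. KERA, keratocan, and EPYC, epiphycan, are proteoglycans of the same family. KERA was highest in MEOX1 cells (mean 6.13 CPM), followed by HLX cells (2.66 CPM), and EPYC had 34 UMIs in all. BTG1, a gene of another family, was between 120.1 and 322 CPM in the 8 gates.

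In single cells LUM and DCN overlapped in part. After thinning, 69 cells carried both, which was 14.3% of 484 LUM-positive and 29.4% of 235 DCN-positive cells. As a mean of the libraries, 0.242% of cells held both, against 0.0259% for the product of the single shares, a figure that pools cell types with different levels. Inside the HLX gate 9 cells held both, 17.0% of LUM-positive and 26.5% of DCN-positive cells, and the share was above the product in 1 of 4 libraries. POSTN and LUM met in 31 cells, as a mean of the libraries 0.109% of cells against 0.176% for the product. In MEOX1 cells, where each was present, 13 cells held both, with the share above the product in 0 of 4 libraries.

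Too few HLX cells were positive for LUM or DCN to test within the gate, since only 2 libraries had 10 or more, so positive and negative cells were compared over all kept cells of 7S, 10S and 13S. This comparison, added after the data had been seen, also carries the differences between cell types. It called 1343 of 11363 genes for LUM (11.8%), 646 higher (5.69%) and 697 lower (6.13%), from 35, 163 and 282 positive cells. Leaving out 13S, the library with most of them, left 377 calls and leaving out 10S left 591. ACTA2, smooth muscle actin, had 124 ± 86.8 CPM in LUM-positive and 6.33 ± 3.88 in LUM-negative cells (log2 difference 4.25 ± 0.14 SE, edgeR adjusted p = 6.9626e-184, n = 3 libraries). ANXA1, a phospholipid-binding protein, had 27.8 against 1.51 CPM and COL3A1, a fibrillar collagen, 78.9 against 6.14 CPM. COLEC11 (16.6 against 1.44 CPM), NKX2-3 (11.4 against 0.753), TNNT2 (15.7 against 1.37) and GATA6 (25.7 against 2.50) were higher too.

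KERA, the neighbour of LUM, had 12.6 CPM in LUM-positive and 0.968 in LUM-negative cells (log2 difference 3.54 ± 0.36 SE). SMYD1 (4.87 against 0.303 CPM) and GASK1B (7.57 against 0.385) passed but lost their call without 13S. On the other side, 5 genes with the largest falls had no UMI in LUM-positive cells. These were APOD (at least 10.7-fold lower), OLIG2 (6.34), ENSGALG00000038425 (5.98), PLEK2 (5.18) and ELAVL2 (4.93), and all but APOD lost their call without 13S. OLIG2 and ELAVL2 are neural genes.

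Among matrix genes, 30 of 79 tested were higher and 8 lower in LUM-positive cells, against 11.8% of all genes in either direction, and DESeq2 called 18. The median log2 difference was 0.28, against -0.04 for all genes. COL1A1 had 144 ± 79.0 against 23.1 ± 6.24 CPM (2.73 ± 0.12 SE, edgeR adjusted p = 9.8026e-118) and COL5A1 184 ± 19.7 against 55.7 ± 8.85 (1.80 ± 0.10, n = 3). Lower were FN1, VCAN, GPC1, TSKU, HAS2, SMOC1, THBS4 and CCN3. The members themselves, given with no test, stood at 40.6 against 3.46 CPM for DCN and at 61.6 against 137 CPM for POSTN.

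**Figure D3:**
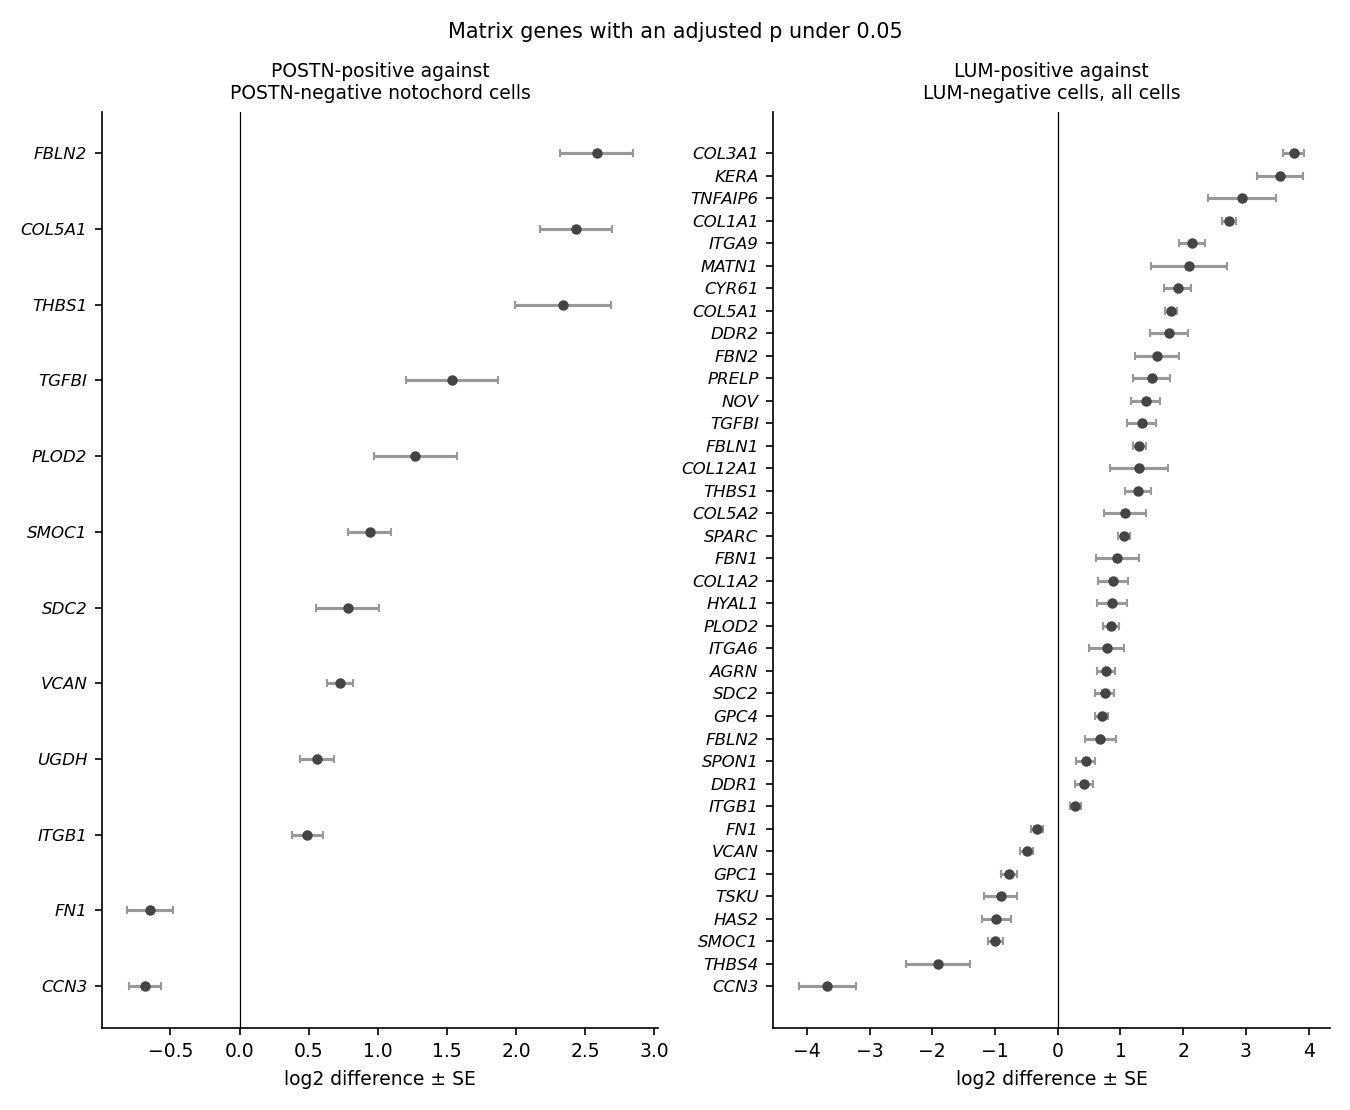
Log2 difference with its standard error (horizontal axis) of the matrix-list genes with an adjusted p under 0.05 by edgeR, between POSTN-positive and POSTN-negative notochord cells (left) and between LUM-positive and LUM-negative cells of all kinds (right). FBLN2 lies at 2.58 and FN1 at -0.65 for POSTN, and COL1A1 at 2.73 for LUM.

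Markers of the HLX gate moved with LUM, and those of the HAND2 gate did so less. Summed HLX-gate markers ranged from 387 to 550 CPM in positive and from 61.3 to 62.6 in negative cells, with 3 of 4 tested genes higher. PRRX1, a homeobox gene of limb and lateral mesenchyme, had 309.8 against 46.4 CPM, HLX itself 64.2 against 8.06 and GATA5 306 against 62.9. Summed HAND2-gate markers ranged from 126 to 136 CPM in positive and from 76.1 to 116 in negative cells. Of that list 2 of 5 tested genes were higher and 0 lower. The surface ectoderm list summed to between 394 and 1862 CPM in positive and between 281 and 453 in negative cells. Only KRT18, a keratin of simple epithelia, was higher among its 6 tested genes, at 1165 against 236 CPM, while EPCAM and TP63 were lower. The part of cell type in these calls was not tested.

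DCN-positive cells (11, 81 and 138 at 7S, 10S and 13S) gave a like comparison, with 724 of 11209 genes called (6.46%), 353 higher (3.15%) and 371 lower (3.31%). Without 13S 217 calls were left, and without 10S 376. TNNT2, cardiac troponin T, had 35.4 ± 26.8 CPM in positive and 1.41 ± 0.371 in negative cells (log2 difference 3.92 ± 0.39 SE, edgeR adjusted p = 5.8214e-21, n = 3). GATA4, a cardiac and splanchnic regulator, had 90.6 ± 54.9 against 7.58 ± 3.82 CPM (3.39 ± 0.26, adjusted p = 2.9307e-37). ACTA2 had 117 against 8.64 CPM, HLX 100.9 against 8.63, GATA6 33.9 against 2.66 and CIDEC 24.8 against 1.46.

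Further rises in DCN-positive cells rested on few UMIs there: GASK1B (10.1 against 0.435 CPM) on 10, ENSGALG00000048337 (11.2 against 0.542) on 11 and C7, a complement component, on 5. Neural PAX6 (at least 16.3-fold lower) and SOX1 (7.49), together with POMC (16.8), APOH (10.4) and UPK1B (4.45), had no UMI in DCN-positive cells. PAX6, POMC and UPK1B lost their call with DESeq2, GASK1B, SOX1 and UPK1B without 13S, and C7 in 4 alternatives. Matrix genes passed in 18 of 78 cases as higher and in 7 as lower, against 6.46% of all genes in either direction (median log2 difference 0.20, all genes -0.05). They were led by COL3A1 (64.3 against 7.82 CPM) and KERA (8.87 against 1.18), and DESeq2 called 9 matrix genes. LUM stood at 115 against 9.89 CPM and POSTN at 12.7 against 137 CPM, given with no test. The HLX-gate markers summed to between 536 and 635 CPM in positive and between 63.4 and 73.9 in negative cells, with 4 of 4 tested genes higher. The HAND2-gate markers summed to between 102 and 131 CPM in positive and between 77.6 and 116 in negative cells, with 3 of 5 higher.

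HAPLN1 was spread over the whole mesoderm. MSGN1 cells had 77.4 CPM at 4S (71.6 to 83.6), 216 in the 7S library (202 to 232), 214 for 10S (205 to 223) and 262 for 13S (252 to 272), a mean of 192 ± 79.8 (SD, n = 4). HAND2 cells had 240.1, 218, 196 and 82.2 CPM and HLX cells 263, 257, 100.4 and 85.2 CPM. In LMO2 cells the level was 167, 197, 104 and 65.2 CPM and in MEOX1 cells 156, 141, 88.1 and 100.2 CPM. The means of these 5 gates lay between 121 and 192 CPM with overlapping ranges. Neighbouring gates in the order of the means (MSGN1, HAND2, HLX, LMO2, MEOX1) kept it in 2, 1, 3 and 3 of the 4 libraries. The order of means thus does not describe each library, and ratios within libraries are given below.

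Notochord and ectoderm held less HAPLN1. Notochord cells had 74.2, 69.3, 35.0 and 22.2 CPM, below MEOX1 cells in 4 of 4 libraries with no overlap of ranges, and surface ectoderm had 38.1, 19.7, 15.0 and 11.4 CPM. PAX6 neural cells had 15.0, 1.37, 4.22 and 3.22 CPM. Positive MSGN1 cells were 14.7%, 36.6%, 38.5% and 44.6% in stage order after thinning. Over the libraries 35.0% were positive, or 64.5% without thinning, at a median depth of 7240 UMIs. Surface ectoderm cells, at 8097 UMIs, were positive at 3.89% (9.85% without thinning) and PAX6 neural cells at 0.515%. Cells with PAX2 and LHX1, regulators of the intermediate mesoderm, had 106, 256, 353 and 289.6 CPM, and 51.6% of these 161 cells were positive.

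The order of the mesoderm gates in HAPLN1 differed between stages. HAPLN1 at 13S stood at 3.38 times 4S in MSGN1 cells (3.10 to 3.69), but at 0.342 in HAND2 cells (0.260 to 0.448), 0.325 in HLX cells (0.228 to 0.463), 0.390 in LMO2 cells (0.303 to 0.496) and 0.644 in MEOX1 cells (0.572 to 0.726). Notochord stood at 0.2996 (0.189 to 0.459) and surface ectoderm at 0.299 (0.185 to 0.478) of the 4S level. Lateral cells had 246, 239, 152 and 83.6 CPM in stage order, against 99.3, 186, 163 and 199 CPM in paraxial cells. The lateral over the paraxial level was 2.47 at 4S (2.15 to 2.84), 1.28 in the 7S library (1.06 to 1.53), 0.934 for 10S (0.821 to 1.06) and 0.421 for 13S (0.355 to 0.495). MEOX1 cells stood at 2.01, 0.652, 0.412 and 0.383 times MSGN1 cells in stage order. With 1 library per stage these shifts could not be tested, and stage and library cannot be told apart.

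By the same markers HAPLN1 differed in opposite directions. Notochord cells with at least 2 UMIs of SHH and LEFTY1 together had 127, 93.8, 52.1 and 27.5 CPM, against 50.5, 39.8, 32.5 and 23.7 CPM in those with neither. The ratio was 2.51 at 4S and 2.36 at 7S, while the intervals of 1.60 at 10S (0.967 to 2.68) and 1.16 at 13S (0.494 to 2.86) included equality. MEOX1 cells with TCF15 had 147, 130.3, 76.9 and 98.2 CPM, against 213, 243, 189 and 172 CPM in those without, lower in 4 of 4. HAPLN1 and POSTN were found together in 675 cells, 12.1% of HAPLN1-positive and 23.2% of POSTN-positive cells. As a mean of the libraries, 2.73% of cells held both, close to 2.58% for the product of the single shares.

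**Figure D4:**
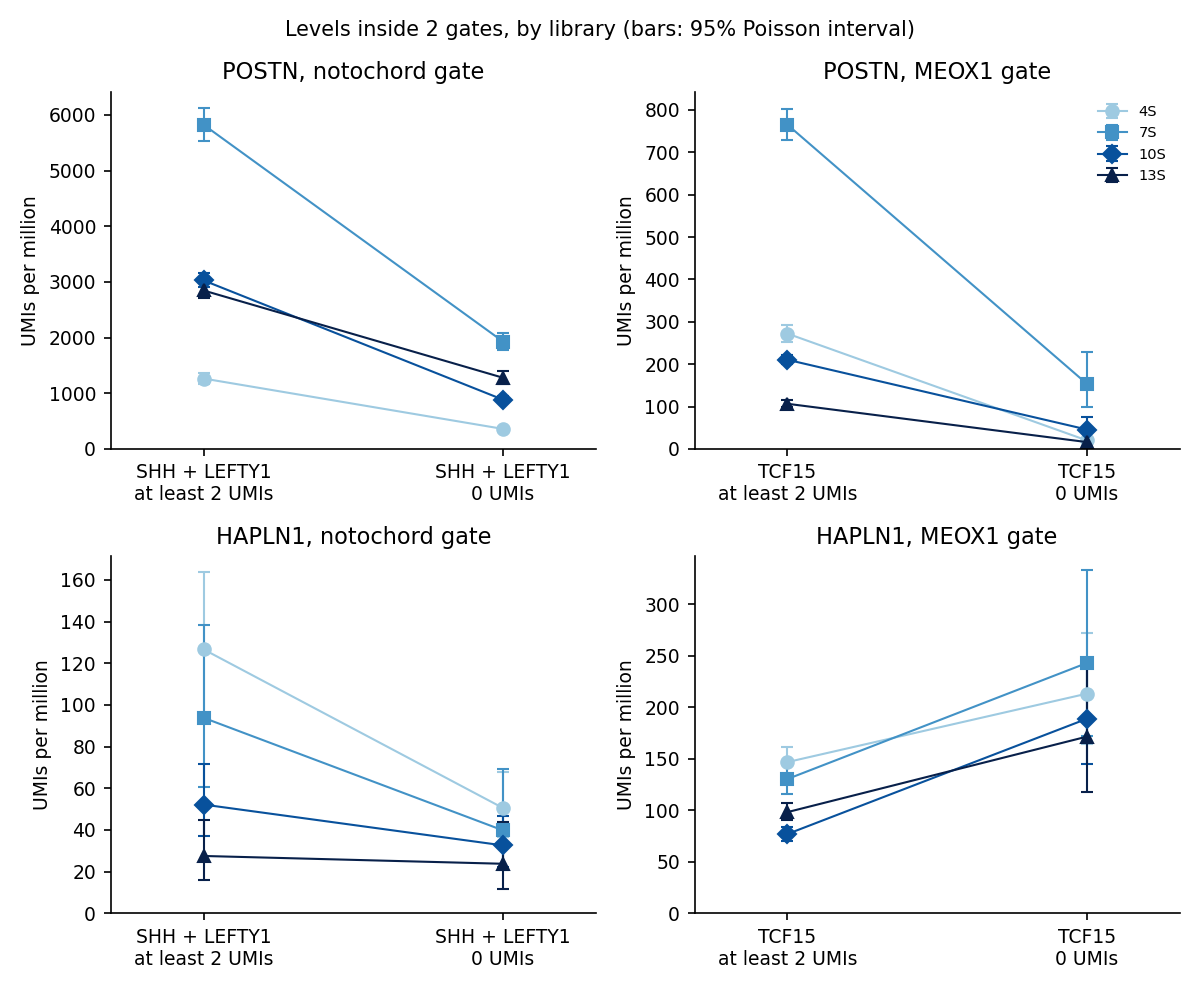
POSTN (top) and HAPLN1 (bottom) in CPM (vertical axes, linear) in cells of the notochord gate (left) and MEOX1 gate (right) with at least 2 UMIs and with 0 UMIs of the markers named on the horizontal axis, 1 line per library and bars for 95% exact Poisson intervals. POSTN is higher in marker-positive cells in both gates in all 4 libraries, while HAPLN1 is lower in them in the MEOX1 gate and, in the notochord gate, higher beyond the counting interval at 4S and 7S only.

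HAPLN1-positive MSGN1 cells (126, 329, 545 and 505) were compared with negative ones (730, 569, 870 and 627 in stage order). Of 8995 genes 17 passed by edgeR with Benjamini-Hochberg adjustment, 10 higher and 7 lower (0.189% of all genes, 0.111% higher and 0.0778% lower), while 608 had an unadjusted p under 0.05 and DESeq2 called 1. CLDN1 had 25.9 ± 15.2 CPM in positive and 58.7 ± 45.8 in negative cells (log2 difference -1.02 ± 0.12 SE, adjusted p = 1.2907e-06) and was lower in 4 of 4 libraries. NKAIN4, a sodium pump interacting protein, had 70.8 ± 14.7 against 102 ± 32.5 CPM (-0.45 ± 0.07, adjusted p = 0.00052502). Further falls seen in every library were DRAXIN (-0.47), UCHL1 (-0.23) and HIST1H101 (-0.22).

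Rises in HAPLN1-positive cells were small. Among genes higher in every library they were led by EFNB2, an ephrin ligand (27.3 against 17.5 CPM, 0.64 ± 0.14 SE, edgeR adjusted p = 0.03939), and PCSK5, a proprotein convertase (94.1 against 74.5 CPM, 0.32). ETS1, from the list of the LMO2 gate, also passed (41.4 against 25.7 CPM, 0.58 ± 0.13 SE, adjusted p = 0.042246), but was higher in 3 of 4 libraries. KPNA2, SMC2, ATP5A1Z, ATP5I, RPS6 and RPS23, each higher in every library, had log2 differences of 0.10 to 0.20. Without the library block no gene passed (54 had an unadjusted p under 0.05), and CLDN1 was the one named gene that kept its call in each other alternative. Without 13S 4 genes passed, without 7S 5 and without 4S 6. None of 56 matrix genes passed (3 had an unadjusted p under 0.05, and DESeq2 called 0), with a median log2 difference of 0.03 (0.00 for all genes). Of all 8995 genes only 0.189% passed, so this count does not set the matrix genes apart.

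The genes whose levels tracked each member most closely were ranked by Pearson correlation of log2(CPM + 1) over 32 sums (8 gates in 4 libraries) among 6192 genes with at least 20 CPM in a gate. The sums share libraries and gates and are not independent, so the coefficients are a description. For POSTN these were WIF1, a WNT inhibitor (0.92, with 208 CPM in notochord and 13.4 in MEOX1 cells), NBL1, a BMP antagonist (0.90), NTN1, netrin 1 (0.90), GRAPL (0.88) and POMC (0.87). LUM was closest to ACTA2 (0.85), DCN (0.83), COL3A1 (0.83), UNC5C, a netrin receptor (0.78), and PRRX1 (0.78). DCN was closest to LUM, ACTA2 (0.82), COL3A1 (0.79), ENSGALG00000050984 (0.79) and BNC2 (0.75), and LUM, like DCN, was highest in the HLX gate.

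HAPLN1 had NRP1, a semaphorin and VEGF receptor (0.88), ZNF365 (0.88), DACT1 (0.87), ITPR2 (0.87) and JCAD (0.87) nearest. Without the small neural gate these values were 0.74, 0.53, 0.75, 0.69 and 0.76. VCAN, which binds the HAPLN1 link protein and lies near it in GRCg7b, had another order, with means of 642 CPM in notochord, 370 in surface ectoderm, 142 in MEOX1 and 133 in MSGN1 cells. Among the members, the coefficient was 0.83 for LUM with DCN, 0.39 for POSTN with HAPLN1 and -0.16 for POSTN with LUM.

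Other matrix genes were tested between the same gates, on 6 lists of which 99 of 117 genes were in the files. The comparisons share cells: the 5 mesoderm gates stand in the first and the last, and the paraxial gates in all 4. In notochord against the 5 mesoderm gates, 25 of 64 were higher and 13 lower by edgeR, with a median log2 difference of 0.38 (-0.01 for all genes). Of all 9592 genes tested 33.3% passed, 17.3% higher and 16.0% lower. CCN3 had 345 ± 72.8 CPM in notochord and 6.19 ± 4.05 in mesoderm (log2 difference 5.90 ± 0.19 SE, adjusted p = 1.0139e-10) and VCAN 642 ± 146 against 124 ± 23.2 (2.41 ± 0.10, adjusted p = 9.309e-10). FBLN2, THBS4 and the collagen receptor ITGA2 were also higher, at 78.0 against 17.5, 22.5 against 6.14 and 3.60 against 0.437 CPM.

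Like LUM and DCN, members of their family were low in notochord, with 3 of 4 tested small leucine-rich proteoglycans lower and none higher. PRELP had 2.79 ± 0.839 against 12.5 ± 4.17 CPM (-2.07 ± 0.32, edgeR adjusted p = 0.00024867) and FMOD, fibromodulin, 5.42 against 20.2 CPM, a call lost without 10S or without the block. LOXL1 (1.05 against 6.66), CYR61 (3.87 against 11.9, lost without the block) and HAPLN3, a relative of HAPLN1 (8.10 against 26.2), were the other large falls. Only POSTN and HAPLN1 of the members passed the filter on low counts here, at log2 differences of 4.30 and -1.67, given with no test.

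In lateral against paraxial cells, 13 of 62 matrix genes were higher and 12 lower (median -0.03, all genes 0.00), with 13.1% of all 9035 genes passing by edgeR, 6.01% higher and 7.12% lower. FMOD and PRELP went against LUM and DCN, at 0.142 against 24.5 CPM and at 2.80 against 14.7 CPM. Of 4 proteoglycans of the family tested, 3 were lower and none higher. FBLN1, fibulin 1, had 142 ± 60.4 in lateral and 28.3 ± 4.94 CPM in paraxial cells (2.26 ± 0.15 SE, adjusted p = 3.8099e-08), FBN2, fibrillin 2, 13.2 against 2.15 and COL3A1 36.9 against 3.69, the last higher in 3 of 4 libraries and lost with DESeq2. SMOC1, a BMP modulator, was lower at 40.2 ± 5.82 against 206 ± 63.0 CPM (-2.31 ± 0.12, adjusted p = 3.7964e-09). NID1 (4.48 against 2.01) and CYR61 (18.7 against 9.47) were higher, and CCN3 (0.529 against 7.28) and LOXL1 (1.21 against 7.57) lower. All 4 members passed the filter, at log2 differences of 3.81 for DCN, 3.45 for LUM, 0.04 for HAPLN1 and -3.17 for POSTN.

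In MEOX1 against MSGN1 cells, 33 of 66 matrix genes were higher and 7 lower (median log2 difference 0.41, all genes -0.01), where 25.6% of all 9931 genes passed by edgeR, 12.7% higher and 12.9% lower. The matricellular list, to which POSTN belongs by type, had 9 of 12 higher and none lower, and the proteoglycan list 3 of 4 higher. FMOD had 62.2 ± 41.3 in MEOX1 and 0.739 ± 0.339 CPM in MSGN1 cells (6.13 ± 0.29 SE, adjusted p = 1.2911e-06), and TNC, tenascin C, 63.6 ± 27.1 against 5.86 ± 3.02 (3.29 ± 0.24, adjusted p = 1.7245e-05). SMOC2 (2.13 against 0.0914), PRELP (34.3 against 2.89) and TGFBI, a paralogue of POSTN (29.4 against 2.37), rose as well.

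FN1 was lower in MEOX1 cells at 85.0 ± 3.65 CPM, against 245.0 ± 80.1 in MSGN1 cells (-1.49 ± 0.17, edgeR adjusted p = 0.00025898). Its receptor subunit ITGA4 (13.9 against 37.2 CPM), the proteoglycan SDC3 (17.8 against 63.4) and ITGB5 (12.1 against 20.3) were lower too, and LOXL1 (5.86 against 8.62) lost its call in 5 alternatives. The hyaluronan list, which holds the partners of HAPLN1, had none of 9 higher and 2 lower. These 22.2% called were near the 25.6% of all genes, so the list did not stand out. LUM, POSTN and HAPLN1 passed the filter, at log2 differences of 3.22, 2.72 and -0.68, given with no test.

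In mesoderm against ectoderm, 28 of 66 matrix genes were higher and 12 lower (median 0.44, all genes 0.01), with 28.7% of all 9671 genes passing by edgeR, 13.2% higher and 15.5% lower. The ectoderm side held 822 surface and 45 neural cells, and 7204 of the 8695 mesoderm cells were paraxial. The values thus mainly set paraxial mesoderm against surface ectoderm. PRELP had 12.5 ± 4.17 in mesoderm and 0.101 ± 0.202 CPM in ectoderm and FMOD 20.2 ± 14.4 against 0.294 ± 0.372, at log2 differences of 6.26 and 5.88. SMOC1 (176 against 20.0), COL1A2 (21.5 against 3.21) and COL1A1 (34.5 against 8.65) were also higher. Ectoderm held more FN1, at 196 ± 65.1 CPM in mesoderm and 938 ± 277 in ectoderm (-2.31 ± 0.10 SE, adjusted p = 7.509e-09), and more of the laminin receptor DAG1 (57.9 against 265) and of COL14A1 (0.525 against 22.9), COL12A1 (1.70 against 6.84) and ITGB5 (21.2 against 61.0). POSTN, HAPLN1 and LUM passed the filter, at log2 differences of 4.89, 3.08 and 2.05.

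**Figure D5:**
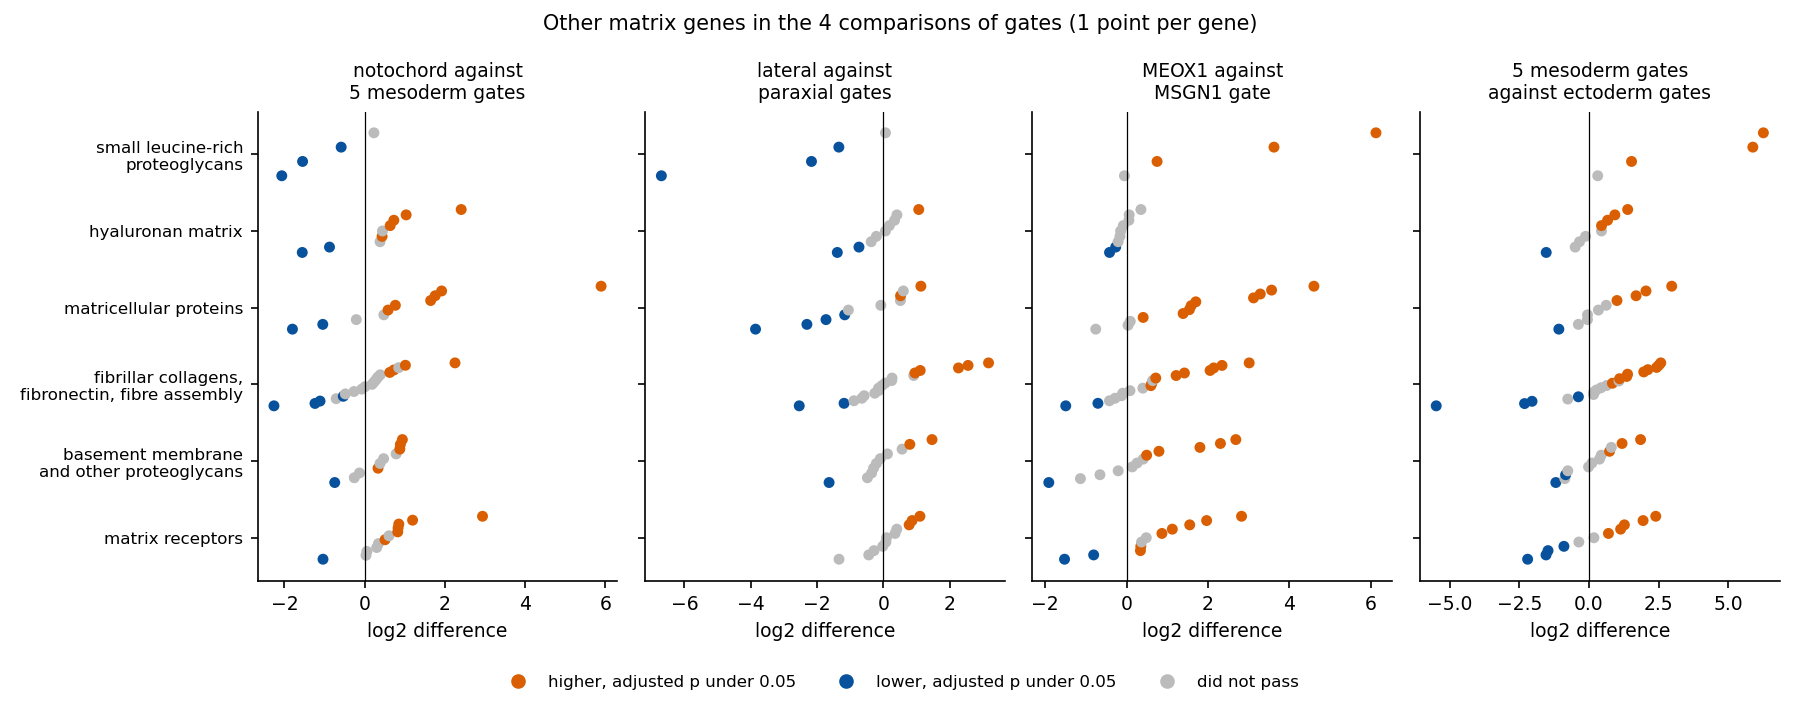
Log2 difference (horizontal axis) of each tested gene of 6 matrix lists (vertical axis, 1 point per gene, the 4 members left out) in the 4 comparisons of gates (panels), with genes of an adjusted p under 0.05 by edgeR in orange (higher) or blue (lower) and the others in grey. The matricellular list has 9 of 12 genes higher in MEOX1 against MSGN1 cells, and the small leucine-rich proteoglycans have 3 of 4 lower in notochord and in lateral cells.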

How the data were processed

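Single-cell RNA was measured in 4 libraries of chick trunk, 1 per stage. The deposited values are raw UMI counts per gene and cell. The authors made them with Cell Ranger 4.0.0 on GRCg6a, per the submitters' processing notes, which also name Scanpy, and with DropEst counting reads of exons and introns, per the study's methods. Whether counting used strand was not given in the sources used here. No column belonged to another series.

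Cells with at least 2500 UMIs and at most 7.5% mitochondrial UMIs were kept (25379 of 27391), with no doublet caller run here. The study's methods describe an earlier removal of potential doublets with Scrublet. They held 37370837, 24490943, 64453991 and 54196129 UMIs at 4S, 7S, 10S and 13S. Gates were set on raw UMIs, cells with both HLX and HAND2 were taken as HLX cells, other cells in more than 1 gate were left out, and the 13761 cells in no gate entered no comparison of gates. The members, gates and lists were chosen with earlier results of these data known.

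UMIs were summed per library and group of cells and tested with edgeR 4.0.16 in R 4.3.3 (TMM, filterByExpr, quasi-likelihood, library as a block, Benjamini-Hochberg adjustment over all genes tested), after the steps were tested on simulated data. DESeq2 1.42.0 was an alternative. The p-values measure the spread between these libraries, each a pool of embryos at another stage, as edgeR shares it over genes. In the comparisons of positive and negative cells, with 3 or 4 libraries each, a gene's own spread between libraries entered little. ACTA2, for example, ranged from 40.7 to 213.8 CPM in LUM-positive cells. POMC ranged from 539 to 2317.5 CPM in POSTN-positive notochord cells. The very small p-values there are thus not a measure of how each gene varies between libraries. Levels and shares were computed in Python 3.11.15 with numpy 2.4.6, scipy 1.17.1 and pandas 2.3.3, and drawn with matplotlib 3.10.9. Correlations used log2(CPM + 1).

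Genes named were the 4 members, the 5 genes closest to each by correlation, up to 5 matrix genes with the largest rise and 5 with the largest fall past the threshold in each comparison of gates, and up to 10 rises and 5 falls of one direction in every library between positive and negative cells. Other genes, among them the gate markers and the neighbours of LUM and DCN, were named after their values were seen. Not found among the lists were BGN, CHAD, HAS1, THBS3, COMP, CCN1, CCN2, CCN4, CCN5, CTGF, COL11A1, BMP1, EFEMP2, NID2, GPC6, CSPG4, ITGA1 and ITGA5. CYR61 and CCN1 name the same gene, as do CCN3 and NOV, and the files hold separate rows for CCN3 and NOV, so reads of that gene may be split.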

Additional observations from a re-analysis of the deposited data

Results flagged for a closer look

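HAPLN1 was singled out because its contrast between gates pointed one way in some stages and the other way in others. In lateral over paraxial cells the ratio was 2.47, 1.28, 0.934 and 0.421 in stage order. In MEOX1 over MSGN1 cells it was 2.01, 0.652, 0.412 and 0.383 in stage order. Each stage was 1 library, so these differences between stages were not tested. At 10S the interval of the lateral ratio, 0.821 to 1.06, included equality.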

How the results depend on the processing

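Of 141 alternative values, 112 were labelled the same, 19 weaker, 3 stronger and 7 moved. The 64 alternatives of levels were read for their direction, and of these 57 stayed the same, 7 moved and none reversed. The others compared only the number of genes called, with the same meaning within 1.5 times of the main count. They could not show a reversal, and a like count can stand for other genes. Among the levels, the 13S over 4S ratio of POSTN in MEOX1 cells was 0.427, against 0.534 with cells of 2 gates kept in both and 0.378 with gates set on thinned counts. HAPLN1 in MSGN1 cells had 3.38, against 3.06 and 3.80 under the same settings, and in HAND2 cells 0.342, against 0.502 with gates at 1 UMI, 0.487 at 3 UMIs and 0.456 on thinned counts. Counts of matrix genes without the library block were 21 for notochord (38 with it) and 15 for lateral cells (25). Leaving out 1 library gave 30 to 41 in notochord, 19 to 27 in lateral, 31 to 44 in MEOX1 and 30 to 42 in mesoderm against ectoderm. For POSTN-positive cells, 647 calls became 270 with DESeq2, 193 without the block and 354 to 561 without 1 library. For LUM 1343 became 483, 418 and 377 to 1622, and for DCN 724 became 221, 275 and 217 to 864, with 1093 for positives without thinning. For HAPLN1 17 calls became 1 with DESeq2 (86 with an unadjusted p under 0.05), 0 without the block (54), 7 with gates at 3 UMIs, 40 without the filter on low counts, 118 for positives without thinning and 4 to 17 without 1 library. The causes were not tested. The mean of LUM in HLX cells was 48.4 CPM and that of DCN 21.5 CPM without 13S. The comparisons of LUM-positive and DCN-positive cells over all cells, and the use of PAX6 cells for neural ectoderm, were added after seeing the data. The comparisons inside the HLX gate were not run, since 2 libraries had enough positive cells. Samples could not be paired across stages, because each stage has only replicate 1 and the labels' numbers pair no samples. The library block pairs the groups of cells of the same library. LUM and DCN in HLX cells rested on 3 or fewer UMIs at 4S, from 20 cells.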

Other observations

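Cells with PAX2 and LHX1, the intermediate mesoderm, held POSTN at 98.7, 162, 38.4 and 19.0 CPM in stage order, and 8.70% of these 161 cells were positive after thinning. HAPLN1 met DCN in 59 cells and LUM in 110 cells. As means of the libraries these were 0.207% and 0.375% of cells, against 0.172% and 0.357% for the products of the single shares. Cells in no gate held 41.9% of all HAPLN1 UMIs.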
